A study of Mus musculus with 16 samples.

Results

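A list of 10 genes that mark endothelial identity was followed through RNA-seq of cultured mouse brain microvascular endothelial cells (mBMEC). They were the junction and surface proteins Cdh5, Pecam1 and Emcn, the receptor tyrosine kinases Tie1, Tek, Kdr and Flt1, the transcription factors Erg and Fli1, and the secreted protein Egfl7. These 10 genes were listed by name and not by a cut-off on their values, although earlier results of these data were known. They came out of 54193 genes with a named transcript, and each gene's value is the sum of the estimated read counts of its transcripts. All 10 were among the 14838 genes with enough counts to be tested. In each of the 16 libraries the 10 genes together held between 0.7 and 1.39% of all counts.

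The series asked how propranolol, a blocker of beta-adrenergic receptors, and rapamycin, an inhibitor of the kinase complex mTORC1, act on cells that lack Ccm3 (Pdcd10), a gene whose loss causes cerebral cavernous malformations. All cultures came from brains of C57BL/6J mice of 8 to 10 weeks that carried Cdh5(PAC)-CreERT2 with Pdcd10 fl/fl, and each culture pooled the brains of several mice. The KO cells received 4-hydroxytamoxifen (4-OHT), which activates the Cre recombinase and deletes the floxed gene, and the WT cells did not, so that genotype and exposure to 4-OHT cannot be told apart. Every group carried the transgene, in which the Cdh5 promoter drives the recombinase, and every culture had been selected with puromycin. There were 6 groups, namely untreated WT (n = 3), WT with 10 µM propranolol for 24 h (WT+P, n = 2), WT with 100 nM rapamycin for 24 h (WT+R, n = 2), untreated KO (n = 3), KO with propranolol (KO+P, n = 3) and KO with rapamycin (KO+R, n = 3).

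Endothelial cells line blood vessels and hold together through adherens junctions built on VE-cadherin, the product of Cdh5, with Pecam1 and the sialomucin endomucin (Emcn) on the same cell surface. Kdr and Flt1 are receptors for vascular endothelial growth factors, of which Kdr carries most of the growth signal and Flt1, also made in a soluble form, binds ligand away from it. Tek (Tie2) is the receptor for angiopoietins and Tie1 its co-receptor, while Erg and Fli1 are ETS factors that bind DNA at a GGAA core and keep endothelial genes on, and Egfl7 is a matrix-bound protein secreted by endothelium.

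The upstream sequences of Emcn, Kdr and Flt1 are shown, chosen by how their counts were assigned and not by a drug result. At least 99% of each gene's counts came from transcripts that start within 100 bases of the RefSeq start. RefSeq entries (table build GRCm38.p6) were found for 7 of the 10 genes, and the windows of 250 bases before the start were placed on GRCm39 by an exact and single match. Only the bases upstream of every annotated start are printed, 5′ to 3′ on the strand of the gene, with each GGAA core and its reverse complement TTCC in capitals.
Emcn, chr3:137046589-137046793, plus strand: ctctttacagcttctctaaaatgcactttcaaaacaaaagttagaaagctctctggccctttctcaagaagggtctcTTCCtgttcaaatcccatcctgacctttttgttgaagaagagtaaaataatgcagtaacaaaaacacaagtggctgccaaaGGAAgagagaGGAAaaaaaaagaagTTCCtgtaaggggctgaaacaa
Kdr, chr5:76139119-76139365, minus strand: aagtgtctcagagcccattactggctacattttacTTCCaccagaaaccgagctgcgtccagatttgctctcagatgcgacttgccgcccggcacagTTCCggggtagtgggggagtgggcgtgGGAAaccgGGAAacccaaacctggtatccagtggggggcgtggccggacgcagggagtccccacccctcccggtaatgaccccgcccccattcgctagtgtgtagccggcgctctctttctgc
Flt1, chr5:147662822-147663071, minus strand: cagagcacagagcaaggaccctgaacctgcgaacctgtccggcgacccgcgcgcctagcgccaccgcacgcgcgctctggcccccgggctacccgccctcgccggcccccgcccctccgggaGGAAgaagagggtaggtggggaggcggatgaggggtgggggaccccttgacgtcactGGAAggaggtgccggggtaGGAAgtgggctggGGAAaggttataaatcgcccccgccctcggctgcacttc

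Each of the 3 printed stretches held 4 GGAA cores, counted on both strands. Across 32851 RefSeq windows of the same 250 bases, 93.4% held at least 1 such core and the median was 3, so the cores do not set these windows apart. The longer word AGGAAG, which contains a GGAA core, was present in 29.5% of the windows, with 2 copies each in those of Emcn and Flt1 and 0 in that of Kdr. The word TATAAA was present once in the Flt1 window, 0 times in the others and in 12.4% of all windows.

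Flt1 was read as 2 main transcripts, and the place where they part is shown because it separates the membrane receptor from its soluble form. Flt1-202 has 30 exons and 3999 coding bases, and Flt1-203 has 13 exons and 2064 coding bases. Both share exon 13, which ends at base 147576035 of chromosome 5 (GRCm39, minus strand). Flt1-202 then joins exon 14, whereas Flt1-203 reads on past the splice site for another 92 coding bases. The last 30 shared bases are given in lower case and the first 60 bases after the parting in capitals, from GENCODE transcripts.
Flt1-202: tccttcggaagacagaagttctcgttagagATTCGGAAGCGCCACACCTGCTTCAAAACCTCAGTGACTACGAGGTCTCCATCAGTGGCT
Flt1-203: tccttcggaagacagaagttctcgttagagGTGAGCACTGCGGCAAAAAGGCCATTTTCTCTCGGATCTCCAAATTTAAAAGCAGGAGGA

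The libraries held between 18.83 and 26.2 M counts (M, 10 to the power of 6). Pdcd10 stood at 11.5, 31.2 and 47 counts-per-million (CPM, scaled with TMM factors) in WT replicates 1, 2 and 3, and at 9.72, 11 and 9.73 CPM in the KO libraries. The library labelled WT replicate 1 thus lay within 2 CPM of the KO libraries, against its label, and the log2 fold change of KO against WT was -1.56 (SE 0.4, edgeR adjusted p = 0.42). The treated WT libraries ranged from 27.7 to 60.8 CPM of Pdcd10 and the treated KO libraries from 7.83 to 16.7 CPM. Libraries with the same replicate number deviated together, so values are also given within a replicate number. In WT replicate 1 such a value sets treated cells at 60.8 (WT+P) or 52 CPM (WT+R) of Pdcd10 against 11.5 CPM untreated. Drug and Pdcd10 level cannot be told apart in these pairs.

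Markers of the labelled cell type were abundant in each library when summed. The 29 other endothelial genes of the marker list were all tested. They summed to between 5890 and 13900 transcripts-per-million (TPM, a level scaled for transcript length). Cldn5, a tight junction protein, was between 571 and 2850 TPM. Some genes of the list were low, such as Calcrl (2.4 to 9.83 TPM), Lyl1 (2.9 to 19 TPM) and Vwf (3.51 to 149 TPM). The lists of other cells were lower: fibroblast genes summed to between 2.16 and 60.8 TPM, microglia and macrophage genes to between 3.08 and 41.6 TPM, neuron genes to between 11.7 and 88.5 TPM, oligodendrocyte genes to between 17 and 40.2 TPM, astrocyte genes to at most 4.95 TPM and epithelial genes to at most 0.881 TPM. Lymphatic genes reached 16.1 TPM, of which Prox1, their defining factor, had at most 0.11 TPM. The mural list was the exception, with 62.9 to 2580 TPM. That sum came from Acta2 (17.7 to 512 TPM) and Tagln (41.3 to 2070 TPM), smooth muscle proteins of the cytoskeleton. The other 9 mural genes stayed at or under 2.01 TPM in each library. Of the pericyte genes among them, Kcnj8 reached only 0.142 TPM, while Pdgfrb was at 0.343 to 1.77 TPM. In such bulk samples fewer cells of a type and less RNA per cell cannot be told apart.

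**Figure D1:**
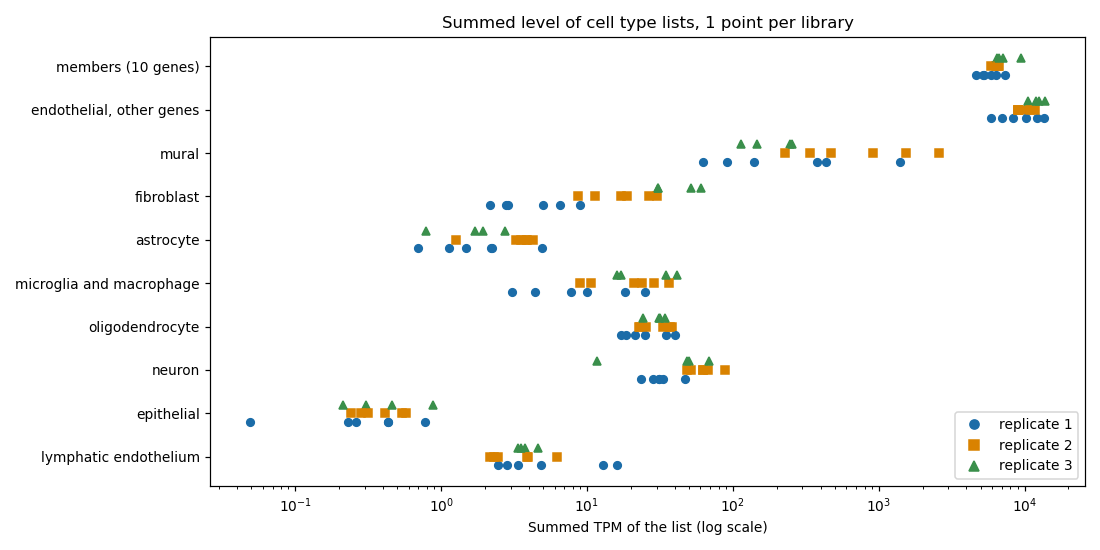
Summed TPM of each list in the 16 libraries (log scale), 1 point per library with the shape and colour giving the replicate number. The 10 genes and the 29 other endothelial genes stood above every list of another cell type, and mural genes spread from 62.9 to 2580 TPM.

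On the TPM scale the 10 genes spread over a wide range of levels. Egfl7 had the highest median level over the 16 libraries, 1740 TPM (1250 to 2870), followed by Pecam1 at 1370 TPM (630 to 1970), Emcn at 1260 TPM (734 to 2100) and Cdh5 at 1130 TPM (884 to 2260). These 4 ranked between 76 and 136 by median among all genes. Egfl7 was above Pecam1 in 14 of 16 libraries, whereas Pecam1 was above Emcn in 11 and Emcn above Cdh5 in 8. Erg at 290 TPM (193 to 398) and Tie1 at 269 TPM (173 to 382) came next, Cdh5 being above Erg in 16 of 16 libraries and Erg above Tie1 in 11. The growth factor and angiopoietin receptors were lower, with Kdr at 77.6 TPM (13.9 to 135), Flt1 at 54.9 TPM (30.5 to 87.8) and Tek at 31.6 TPM (13.2 to 58.7). Tie1 was above Kdr in 16 of 16 libraries, Kdr above Flt1 in 12 and Flt1 above Tek in 14. Fli1 was the lowest at 19.5 TPM (7.42 to 42.4), below Tek in 15 of 16 libraries. On the CPM scale, which compares libraries within a gene, the span was widest for Kdr, whose highest library was 10.2 times its lowest, followed by Fli1 at 6.02 times and Tek at 4.5 times, and narrowest for Erg at 1.59 times.

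**Figure D2:**
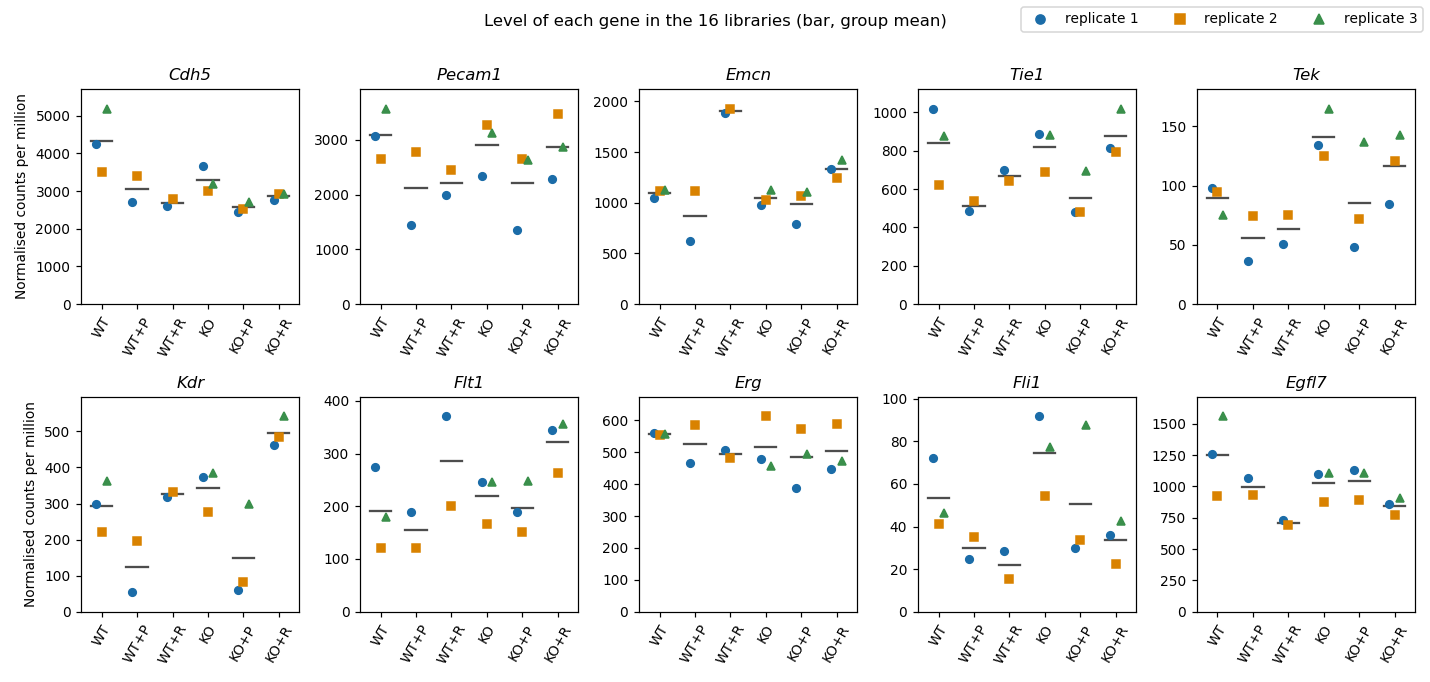
Normalised CPM of each gene in the 16 libraries by group, with points for replicates 1, 2 and 3 and a bar for the group mean. Kdr was lowest in WT+P replicate 1 (53.2 CPM) and KO+P replicates 1 and 2 (59.2 and 83.4 CPM), and both WT+R libraries of Emcn (1890 and 1930 CPM) stood above the other 14.

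The first comparison asked whether loss of Ccm3 altered these genes in untreated cells. None of the 10 passed the test, a Benjamini-Hochberg adjusted p under 0.05 with a fold change above 1.5, in the edgeR quasi-likelihood fit of KO against WT, where 1 of 14838 genes passed (0.00674%). At an unadjusted p under 0.05 the edgeR count was 1 of 10, against 6.07% of all genes. DESeq2 called 0 of the 10 without and with the replicate number as a block, where it called 0.478 and 2.67% of all genes. The log2 fold changes lay between -0.39 and 0.66, with 6 of 10 below 0, against 51.2% of all genes. Between libraries of the same number, the KO library was the higher in all 3 pairs for 3 members (Tek, Kdr and Fli1), as for 21.3% of all genes, and the lower in all 3 for 2 members (Cdh5 and Egfl7), as for 22.2%. Without WT replicate 1 the count of calls was also 0, with Cdh5 at -0.41 and Tek at 0.73.

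Among the junction genes, Cdh5 (chr8:104828231-104871143, plus strand, GRCm39) had 4260, 3510 and 5190 CPM in WT replicates 1 to 3 and 3660, 3010 and 3200 CPM in the KO libraries. The KO library was the lower in all 3 pairs of the same number, although the groups overlapped. Its log2 fold change was -0.39 (SE 0.16, 95% interval -0.74 to -0.05, edgeR adjusted p = 0.732). Pecam1 (chr11:106543689-106641454, minus strand) and Emcn (chr3:137046794-137138999, plus strand) had log2 fold changes of -0.09 (SE 0.29) and -0.07 (SE 0.19), with intervals of -0.72 to 0.55 and of -0.49 to 0.34, of which that of Emcn lay within a 1.5-fold change in either direction.

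Of the receptors, Tek (chr4:94627291-94763224, plus strand) was the only member whose libraries did not overlap between KO and WT, as for 13.2% of all genes. It stood at 98.1, 94.4 and 74.9 CPM in WT and at 134, 125 and 165 CPM in KO, a log2 fold change of 0.66 (SE 0.35, edgeR adjusted p = 0.905). The KO libraries were thus all above the WT libraries, by an amount that did not pass the test. Kdr (chr5:76093487-76139884, minus strand) had 300, 220 and 362 CPM in WT and 373, 276 and 384 CPM in KO, with a log2 fold change of 0.23 and a wide interval of -0.92 to 1.37. Tie1 (chr4:118328385-118347261, minus strand) at -0.03 (SE 0.2) and Flt1 (chr5:147498414-147662826, minus strand) at 0.2 (SE 0.32) had groups that overlapped.

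The ETS factor Fli1 (chr9:32333500-32454157, minus strand) had 72.3, 41.1 and 46.4 CPM in WT and 91.8, 54.3 and 77.4 CPM in KO, the KO library being the higher in each pair, with a log2 fold change of 0.48 (SE 0.41). Erg (chr16:95160028-95387452, minus strand) was even across the untreated cells, with group means of 558 ± 4.7 CPM in WT (SD, n = 3) and 516 ± 84.6 CPM in KO (SD, n = 3). Egfl7 (chr2:26468286-26486789, plus strand) stood at 1250 ± 321 CPM in WT and 1030 ± 133 CPM in KO (SD, n = 3 each), with a log2 fold change of -0.28 (SE 0.18, edgeR adjusted p = 0.98). Of the exonic bases of Egfl7, 17.8% overlap other genes. These are Agpat2 and Mir126b on the opposite strand, which the unstranded libraries cannot separate, and Gm20532 and Mir126a on the same strand. The share of each in the overlap was not measured. Agpat2 itself held 88 to 511 counts per library. Exonic overlap was 4.8% for Tie1, 2.8% for Fli1, 2% for Cdh5 and 0% for the other members.

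The second question was the effect of propranolol. In WT+P all 10 members had log2 fold changes below 0 against WT, and in KO+P 9 of 10 against KO, where 49.6 and 50.7% of all genes were below 0. None passed the edgeR test in either comparison, in each of which 1 gene of 14838 passed (0.00674%). The edgeR counts at an unadjusted p under 0.05 were 2 of 10 in WT+P and 3 of 10 in KO+P, against 9.87 and 12.6% of all genes. DESeq2 called 0 members in both comparisons, against 0.835% of all genes in WT+P and 1.08% in KO+P. With the replicate block it called 0 in WT+P, against 0.737% of all genes, and 3 in KO+P (Tie1, Tek and Kdr), against 7.12%. The median log2 fold change of the 10 was -0.52 in WT+P and -0.38 in KO+P, against 0 and -0.01 over all genes. The 29 other endothelial genes had medians of -0.39 and -0.38.

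Kdr had the lowest estimates of the 10 with propranolol. It stood at 53.2 and 197 CPM in WT+P replicates 1 and 2, against 300, 220 and 362 CPM in WT, a log2 fold change of -1.23 (SE 0.62, edgeR adjusted p = 0.533). In KO+P it stood at 59.2, 83.4 and 300 CPM, against 373, 276 and 384 CPM in KO, a log2 fold change of -1.22 (SE 0.54, edgeR adjusted p = 0.379). The treated library was the lower in all 5 pairs of the same number, but by very different amounts, with log2 ratios of -2.49 and -0.16 in WT and of -2.65, -1.73 and -0.36 in KO. The size of the response over all genes differed between replicates too, the median absolute log2 ratio being 0.43 and 0.16 in WT and 0.4, 0.27 and 0.17 in KO. Without KO+P replicate 3, an alternative listed for every library, Kdr passed at -2.27 (edgeR adjusted p = 0.0303) and was the 1 member of the 10 to do so. The share of all genes called in that fit was not counted. Kdr was at -0.85 (edgeR adjusted p = 0.99) when KO+P replicate 1 was left out and at -0.94 (edgeR adjusted p = 0.616) when KO+P replicate 2 was. In WT+P it was at -0.58 (edgeR adjusted p = 1) without replicate 1 and at -2.47 (edgeR adjusted p = 0.0926) without replicate 2 of that group.

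Tie1 and Tek varied between replicates in the same way. Tie1 had 483 and 540 CPM in WT+P against 622 to 1020 CPM in WT, and 479, 478 and 695 CPM in KO+P against 691 to 887 CPM in KO. The WT groups were apart and the KO groups overlapped through KO+P replicate 3. The log2 fold changes of Tie1 were -0.71 (SE 0.23, edgeR adjusted p = 0.42) and -0.57 (SE 0.2, edgeR adjusted p = 0.326). Tek stood at 36.6 and 74.5 CPM in WT+P and at 47.9, 71.7 and 137 CPM in KO+P, with log2 fold changes of -0.68 (SE 0.4) and -0.73 (SE 0.35). Single libraries moved these values of Tek, to -0.26 without WT+P replicate 1 and -1.28 without WT+P replicate 2, and to -0.44 in KO cells with replicate 1 of KO+P left out and -1.24 with its replicate 3 left out. Flt1 was the receptor with the smallest estimates, -0.31 (SE 0.36) in WT+P and -0.16 (SE 0.32) in KO+P.

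Cdh5 stood at 2700 and 3390 CPM in WT+P, below all WT libraries, and at 2450, 2530 and 2710 CPM in KO+P, below all KO libraries. Its log2 fold changes of -0.5 (SE 0.18, edgeR adjusted p = 0.454) and -0.36 (SE 0.16, edgeR adjusted p = 0.383) did not pass. It was the 1 member whose KO+P libraries all lay below KO, as for 9.11% of all genes, and 1 of 5 whose WT+P libraries all lay below WT (Cdh5, Tie1, Tek, Kdr and Fli1), as for 10.3% of all genes. Cdh5, Tie1, Tek and Kdr were lower with propranolol in all 5 pairs of the same number (4 of 10), as were 15.4% of all genes, and 0 of 10 were higher in all 5, against 14.6% of all genes. These pairs include WT replicate 1, where the untreated library had Pdcd10 at the level of the KO libraries and the treated library did not.

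Fli1 had 24.6 and 35.2 CPM in WT+P and 30.1, 33.8 and 87.7 CPM in KO+P, with log2 fold changes of -0.83 (SE 0.47) and -0.56 (SE 0.41). KO+P replicate 3 stayed at the level of the KO libraries, whereas the other 2 lay below all of them, and the estimate was -1.22 with replicate 3 of KO+P left out and -0.3 with its replicate 1 left out. With the replicate block and without KO+P replicate 3, a setting added after the data were seen, Fli1 passed at -1.12 (edgeR adjusted p = 0.0425), and so did Tie1, Tek and Kdr. The share of all genes called in that setting was not counted. With the block and all libraries no member passed in KO+P (smallest edgeR adjusted p = 0.0918). Erg differed little, with log2 fold changes of -0.09 in both genotypes and intervals of -0.49 to 0.32 in WT+P and -0.45 to 0.28 in KO+P. Egfl7 in KO+P was at 0.02 (95% interval -0.37 to 0.41). Pecam1 was low in the first replicates (1450 CPM in WT+P and 1360 CPM in KO+P) and between 2630 and 2780 CPM in the other treated libraries, with log2 fold changes of -0.55 (SE 0.33) and -0.4 (SE 0.29).

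**Figure D3:**
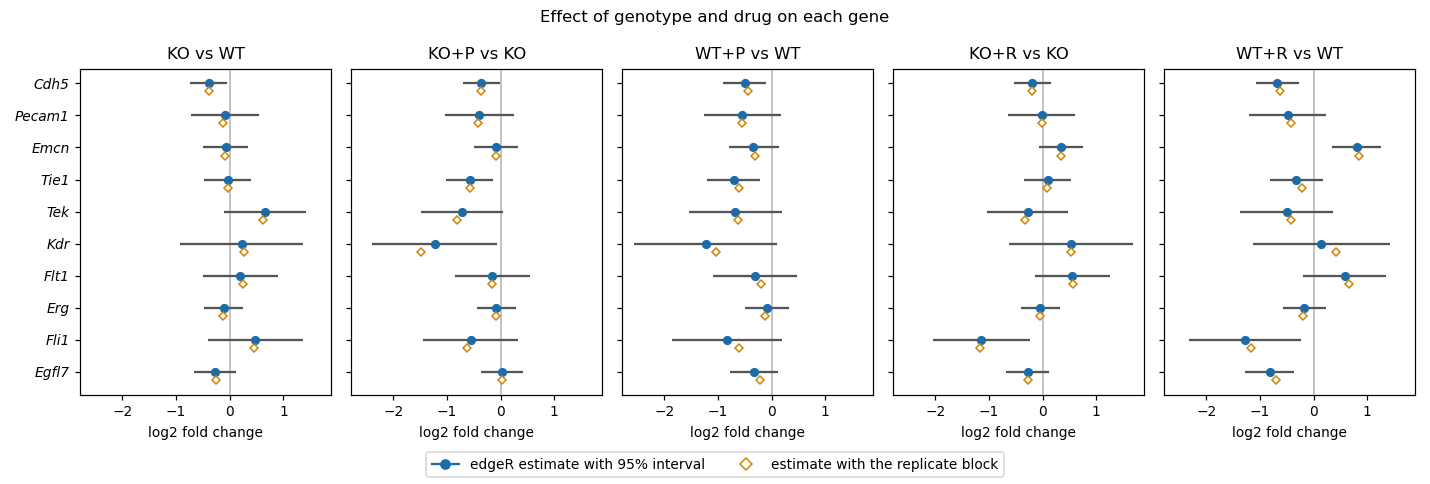
Log2 fold change of each gene in 5 comparisons, as the edgeR estimate with its 95% interval (filled) and the estimate with the replicate block (open). Propranolol estimates lay between -1.23 and 0.02, while rapamycin estimates spread on both sides of 0, from -1.28 (Fli1) to 0.8 (Emcn).

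The third question was the effect of rapamycin, for which the members had estimates on both sides of 0. Emcn, Kdr and Flt1 were higher with rapamycin in all 5 pairs of the same number (3 of 10, against 18.5% of all genes), and Cdh5, Tek, Fli1 and Egfl7 were lower in all 5 (4 of 10, against 22.9% of all genes). WT replicate 1, whose untreated library had Pdcd10 at the level of the KO libraries, is among these pairs. None passed the edgeR test in KO+R against KO, where 224 of 14838 genes passed (1.51%), or in WT+R against WT, where 1.4% passed. The edgeR counts at an unadjusted p under 0.05 were 1 of 10 in KO+R and 4 of 10 in WT+R, against 12.5 and 12.6% of all genes. With the replicate block edgeR called 2 members in WT+R, Emcn and Egfl7, against 4.56% of all genes, and 0 in KO+R, against 4.98%. DESeq2 called 0 members in KO+R and 3 in WT+R (Cdh5, Emcn and Egfl7), against 3.11 and 3.64% of all genes, and with the block it called Fli1 in KO+R and 5 members in WT+R (Cdh5, Emcn, Flt1, Fli1 and Egfl7), against 7.92 and 6.66% of all genes. With the block and without WT replicate 1, Emcn (0.93), Flt1 (0.94) and Egfl7 (-0.71) were called in WT+R, where the share of all genes was not counted. Both drugs were compared with the same untreated libraries, so the comparisons share their controls.

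Emcn had 1890 and 1930 CPM in WT+R, above the 1050, 1120 and 1130 CPM of WT, and 1330, 1240 and 1420 CPM in KO+R, above the 974, 1030 and 1130 CPM of KO. In WT+R the log2 fold change was 0.8 (SE 0.21, edgeR adjusted p = 0.0846) without the block, and 0.85 (SE 0.18, edgeR adjusted p = 0.0176) with the replicate block. In KO+R it was 0.35 (SE 0.19, edgeR adjusted p = 0.502). Replicates were close, with log2 ratios of 0.85 and 0.78 in WT and of 0.45, 0.27 and 0.33 in KO. In the same WT+R libraries the mural list summed to 1390 and 2580 TPM, against 91.4 to 916 TPM in WT, with 1 of its 8 tested genes called higher in WT+R (Acta2, log2 fold change 2.74, SE 0.61, edgeR adjusted p = 0.0469) and 2 with the replicate block (Acta2 and Tagln). Of its pericyte genes Kcnj8 and Abcc9 were at 0 in some libraries and at most at 0.156 TPM. Others were above 0 in each library, namely Pdgfrb (0.343 to 1.77 TPM), Cspg4 (0.242 to 2.01 TPM), Notch3 (0.0534 to 1.71 TPM) and Rgs5 (0.0168 to 0.636 TPM). The microglia and macrophage list summed to 3.08 and 9.03 TPM in WT+R against 7.82 to 23.7 TPM in WT, and to 4.39 to 17.1 TPM in KO+R against 18.3 to 41.6 TPM in KO. Most of it was Cd68, a lysosomal protein, and P2ry12 was at 0 in each library, while Aif1, Tmem119 and C1qa reached 1.32, 1.28 and 1.25 TPM. Aif1 went the other way from the sum in WT+R, at 1.32 and 0.939 TPM against 0.285 to 0.53 TPM in WT. Of its 4 tested genes 0 were called with rapamycin in either genotype without the block. With the block 1 was called lower in WT+R (Cd68, edgeR adjusted p = 0.0389) and 2 in KO+R (Cd68 and Csf1r, edgeR adjusted p = 0.00869 and 0.0303). Without the block the log2 fold changes of Cd68 were -1.45 (SE 0.65) in WT+R and -1.55 (SE 0.56) in KO+R. That of Csf1r in KO+R was -4.07 (SE 0.95). Csf1r was near the floor, with a mean of 0.275 CPM. It stood at 0, 0.0158 and 0 TPM in KO+R, against 0.0665 to 0.143 TPM in KO. The part of the mural and the macrophage genes in the rapamycin results for the 10 members was not tested.

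The other WT+R call with the block, Egfl7, went the opposite way. It stood at 734 and 688 CPM in WT+R, below the 923 to 1560 CPM of WT, and at 859, 770 and 909 CPM in KO+R against 875 to 1110 CPM in KO. The log2 fold change in WT+R was -0.81 (SE 0.21, edgeR adjusted p = 0.0737) without the block and -0.7 (SE 0.13, edgeR adjusted p = 0.0111) with the replicate block, and in KO+R it was -0.28 (SE 0.18, edgeR adjusted p = 0.595). Agpat2, which overlaps its exons, had a log2 fold change of 0.73 (SE 0.49, edgeR adjusted p = 0.632) in WT+R. How reads were divided between Egfl7 and Agpat2 was not tested.

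Fli1 had the lowest estimates with rapamycin. It stood at 28.5 and 15.3 CPM in WT+R against 41.1 to 72.3 CPM in WT, and at 36.2, 22.4 and 42.6 CPM in KO+R against 54.3 to 91.8 CPM in KO. Both treated groups lay wholly below their controls. The log2 fold changes were -1.28 (SE 0.48, edgeR adjusted p = 0.257) and -1.14 (SE 0.42, edgeR adjusted p = 0.249). The log2 ratios within a replicate number, -1.34 and -1.43 in WT and -1.34, -1.27 and -0.86 in KO, varied less than those with propranolol. Erg, the other ETS member, had log2 fold changes of -0.18 (95% interval -0.58 to 0.23) in WT+R and -0.04 (95% interval -0.4 to 0.33) in KO+R.

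Cdh5 stood at 2590 and 2800 CPM in WT+R, below all WT libraries, with a log2 fold change of -0.68 (SE 0.18, edgeR adjusted p = 0.0874, and 0.054 with the replicate block). In KO+R it stood at 2770, 2910 and 2910 CPM, also below all KO libraries, with a log2 fold change of -0.2 (SE 0.16). Of the growth factor receptors, Flt1 was at 371 and 200 CPM in WT+R and at 344, 263 and 357 CPM in KO+R, the latter above all KO libraries, with log2 fold changes of 0.58 (SE 0.36) and 0.55 (SE 0.32). The WT+R value of Flt1 was 0.07 without WT+R replicate 1 and 0.96 without WT+R replicate 2. Its ratios within a replicate number were even, between 0.43 and 0.74. Kdr was at 318 and 332 CPM in WT+R and at 463, 485 and 542 CPM in KO+R, again above all KO libraries, with log2 fold changes of 0.14 (SE 0.59) and 0.53 (SE 0.53). In KO+R 5 members did not overlap with KO, against 24.1% of all genes, and in WT+R 6 did not overlap with WT, against 28.6% of all genes. Tek was at -0.5 (SE 0.4) and -0.28 (SE 0.35), Tie1 at -0.32 (SE 0.23) and 0.1 (SE 0.2) and Pecam1 at -0.48 (SE 0.33) and -0.02 (SE 0.29) in WT+R and KO+R.

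**Figure D4:**
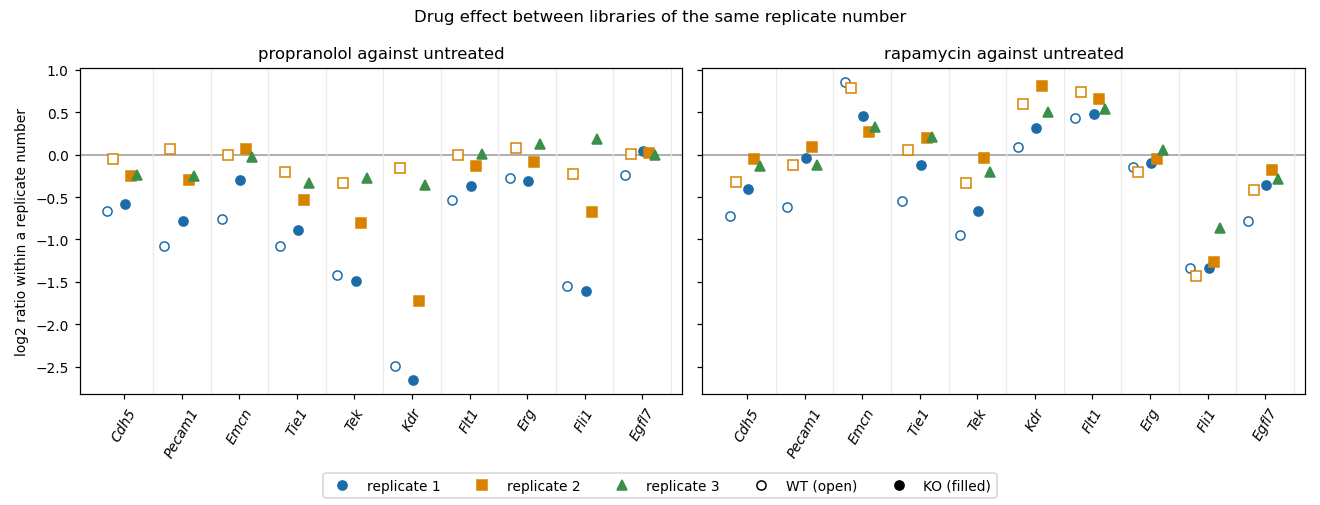
Log2 ratio of the treated to the untreated library of the same replicate number, for propranolol (left) and rapamycin (right), with open points for WT and filled points for KO. Propranolol ratios of Kdr ran from -2.65 to -0.16 with replicate 1 lowest in both genotypes, whereas rapamycin ratios of Fli1 ran from -1.43 to -0.86.

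The drugs were also set against each other. Emcn was the 1 member called in WT+R against WT+P, where 194 of 14838 genes passed (1.31%). It was higher with rapamycin, at 1890 and 1930 CPM against 622 and 1120 CPM, a log2 fold change of 1.13 (SE 0.24, edgeR adjusted p = 0.0406). Without WT+P replicate 1, the low library, it was 0.77 (edgeR adjusted p = 0.242), and the call was also lost without either WT+R library. With the replicate block Flt1 was called there too, at 0.86 (SE 0.2, edgeR adjusted p = 0.0317), against 0.89 (SE 0.4, edgeR adjusted p = 0.314) without it, and 4.93% of all genes were called. In this comparison 5 members did not overlap, as for 37% of all genes.

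In KO+R against KO+P no member passed without the block (606 genes or 4.08% passed), with 4 of 10 at an unadjusted p under 0.05 in edgeR against 21.1% of all genes. Kdr had 463, 485 and 542 CPM with rapamycin and 59.2, 83.4 and 300 CPM with propranolol, a log2 fold change of 1.75 (SE 0.55, edgeR adjusted p = 0.0866), and 2 (SE 0.48, edgeR adjusted p = 0.0204) with the replicate block. Tie1 and Flt1 were also called with the replicate block, at 0.68 (SE 0.16, edgeR adjusted p = 0.0161) and 0.72 (SE 0.16, edgeR adjusted p = 0.0159). DESeq2 called 2 members (Tie1 and Kdr) without the block and 3 with it, against 7.72 and 12.3% of all genes. The block raised the edgeR count over all genes to 9.62%. Leaving out KO+P replicate 3 gave 2 calls, Tie1 and Kdr, without the block, where the share of all genes was not counted. All KO+R libraries lay above all KO+P libraries for 5 of 10 members, against 11.7% of all genes, and below them for 0 of 10, against 13.9%.

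Genotype was also compared within each drug. None of the 10 passed in KO+P against WT+P or in KO+R against WT+R, where edgeR called 0 genes (0%) in each. The edgeR counts at an unadjusted p under 0.05 were 0 and 2 of 10, against 6.19 and 5.72% of all genes, and DESeq2 called 0 members in both without the block (0.455 and 0.502% of all genes) and with it (1.91 and 2.23%). In KO+R against WT+R the 2 were Emcn, with a log2 fold change of -0.52 (SE 0.21, edgeR adjusted p = 0.808), and Tek, at 0.89 (SE 0.41, edgeR adjusted p = 0.864). Tek thus had KO libraries above WT libraries both untreated and with rapamycin, without passing the test in either.

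Whether a drug acted differently in KO and WT cells was tested as an interaction, at the adjusted p alone. No member passed for propranolol or rapamycin, and edgeR called 0 of 14838 genes (0%) in each. No member had an unadjusted p under 0.05 in edgeR, against 0.721 and 0.762% of all genes, and DESeq2 called 0 members for either drug without the block (0 and 0.00368% of all genes) and with it (0.0441 and 0.0661%). The estimates for rapamycin were largest in size for Egfl7, 0.53 (95% interval -0.06 to 1.13), and Cdh5, 0.48 (95% interval -0.04 to 1), and that of Emcn was -0.45 (95% interval -1.07 to 0.17), each with the smaller drug estimate in KO cells. Over the 10 members the intervals reached from -1.71 to 1.73 for propranolol and from -1.34 to 2.11 for rapamycin, so that for some members they held differences of more than 2-fold between genotypes.

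The transcripts behind these counts differed between genes. Cdh5, Tie1, Kdr and Fli1 were each assigned almost wholly to a single transcript. Emcn was split between Emcn-201, with a median of 60.56% of its counts (56.93 to 63.58%), and Emcn-202, with 38.49% (35.07 to 41.58%), and hardly varied between libraries. Erg had 2 used starts, Erg-208 at 40.8% (35.09 to 44.27%) and Erg-207 at 45.65% (40.56 to 53.64%). The share of Tek-203 ran from 27.61 to 78.83%, with the lowest values in KO+P replicate 1 and KO+R replicate 1. These shares are Salmon's estimates, which divide reads between transcripts with shared exons, and no test was made of them.

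The soluble form of Flt1, shown above by the bases in which it departs from the receptor, took a median of 40.99% of the counts of the gene (31.82 to 52.86%). The group means were 43.51 ± 2.31% in WT (SD, n = 3), 40.61 ± 3.75% in WT+P (SD, n = 2) and 50.12 ± 3.89% in WT+R (SD, n = 2), and 38.71 ± 3.59% in KO, 35.33 ± 3.07% in KO+P and 40.13 ± 3.2% in KO+R (SD, n = 3 each). Within a replicate number the share was above the untreated value with rapamycin, at 47.37 and 52.86% against 41.47 and 46.02% in WT, and at 40.51, 43.12 and 36.75% against 37.01, 42.83 and 36.27% in KO. In KO replicates 2 and 3 that difference was under 1 percentage point, less than the SD of the KO group.

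**Figure D5:**
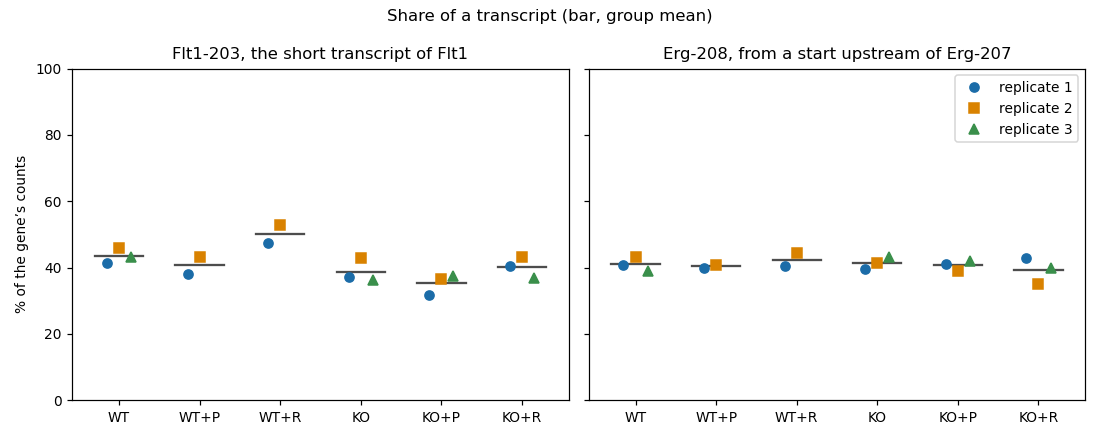
Share of a gene's counts assigned to Flt1-203, the soluble form (left), and to Erg-208 (right), in each library by group, with a bar for the group mean. Flt1-203 shares ran from 31.82% (KO+P replicate 1) to 52.86% (WT+R replicate 2), and Erg-208 shares stayed between 35.09 and 44.27%.

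The ligands and partners of these receptors were read beside them. Of 12 ligands and co-receptors of Kdr, Flt1, Tek and Tie1, 10 were tested and none passed in KO vs WT or against the untreated cells with either drug, in either genotype. Pgf, a ligand of Flt1, was abundant at 1240 to 5910 TPM, and Angpt2, a ligand of Tek, at 465 to 3070 TPM. Vegfa, the main ligand of Kdr, was low at 3.87 to 35.5 TPM. In KO+P all Vegfa libraries lay above KO, with a log2 fold change of 1.83 (SE 0.48, edgeR adjusted p = 0.251). With the replicate block 3 of the 10 were called in KO+R against KO+P, where 9.62% of all genes were, namely Vegfa at -1.58 (SE 0.48) and Pgf at -1.05 (SE 0.42), both lower with rapamycin, and Angpt2 at 1.23 (SE 0.39), higher with rapamycin, with edgeR adjusted p-values of 0.0241, 0.025 and 0.0231 with the block and of 0.0805, 0.173 and 0.0937 without it. The co-receptor Nrp2 was called with the replicate block in WT+R against WT, at 1.07 (SE 0.25). Its edgeR adjusted p was 0.0357 with the block and 0.054 without it. The log2 fold changes and SEs given here for genes called with the block are those of the fit without it.

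Of the 13 genes of the VE-cadherin complex and its anchors, none passed in KO against WT or with propranolol. In WT+R against WT 1 rose, the actin linker vinculin (Vcl), at 1.29 (SE 0.29, edgeR adjusted p = 0.0469). In KO+R against KO, Vcl had a log2 fold change of 0.94 (SE 0.26, edgeR adjusted p = 0.119), and passed with the replicate block (edgeR adjusted p = 0.0343). The block also added Plekha7, a junction protein at 2.7 CPM, which was lower in KO+R (edgeR adjusted p = 0.0273 with the block and 0.333 without it). Ctnnd1, higher in WT+R, was added too (edgeR adjusted p = 0.0374 with the block and 0.102 without it). In the fit without the block their log2 fold changes were -1.74 (SE 0.73) and 0.68 (SE 0.19). Between the drugs in KO cells 4 of the 13 were higher with rapamycin and 1 was lower, where 4.08% of all genes were called. The 4 were p120-catenin (Ctnnd1), which binds the tail of VE-cadherin, at 0.86 (SE 0.17), afadin (Afdn), an actin-binding junction protein, at 0.69 (SE 0.14), Vcl at 1.12 (SE 0.26) and Heg1, a transmembrane receptor that anchors the CCM complex, at 2.08 (SE 0.52). The 1 lower was the small GTPase Rap1a, at -0.93 (SE 0.21). Their edgeR adjusted p-values were 0.0156, 0.0179, 0.03, 0.0382 and 0.0267. Cdh5 itself stood at 2870 ± 78.7 CPM in KO+R and 2570 ± 134 CPM in KO+P (SD, n = 3 each).

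Of the 22 other ETS family genes, 15 were tested. Ets1, a further ETS factor of endothelial cells, fell with rapamycin in both genotypes, from 350 ± 77.3 to 186 ± 24.3 CPM in WT (SD, n = 3 and 2; log2 fold change -0.91, SE 0.16, edgeR adjusted p = 0.0177) and from 305 ± 21.1 to 190 ± 9.06 CPM in KO (SD, n = 3 each; -0.68, SE 0.14, edgeR adjusted p = 0.0316). No other ETS gene of the list passed against untreated cells. Of the 29 other endothelial genes 1 rose with rapamycin and none fell, in each genotype. It was Eng, the TGF-beta co-receptor endoglin, which rose from 1850 ± 79.1 to 4450 ± 326 CPM in WT (SD, n = 3 and 2; log2 fold change 1.27, SE 0.22, edgeR adjusted p = 0.0175) and from 1940 ± 255 to 3830 ± 285 CPM in KO (SD, n = 3 each; 0.98, SE 0.2, edgeR adjusted p = 0.0316). With the replicate block the surface glycoprotein Cd93 was also called, lower with rapamycin in KO+R and in WT+R. Its edgeR adjusted p-values were 0.0326 and 0.0308 with the block, and 0.248 and 0.241 without it. The sialomucin Cd34 was called lower in WT+R (edgeR adjusted p = 0.00986 with the block and 0.0626 without it). In the fit without the block, Cd93 had log2 fold changes of -0.64 (SE 0.23) in KO+R and -0.72 (SE 0.26) in WT+R. That of Cd34 in WT+R was -0.96 (SE 0.24). The medians of the 29 genes were -0.19 and -0.04 in WT+R and KO+R, against -0.01 and -0.02 over all genes. With propranolol none of the 29 passed, and the largest non-overlapping estimates in KO+P were Sox18, -1.73 (SE 0.7), Lyl1, -1.63 (SE 0.55), and Mcam, -1.23 (SE 0.34). In KO against WT none of the 29 passed. There 3 were higher and 1 lower without overlap, where 13.2% of all genes did not overlap. The 3 were Ramp2, 1.39 (SE 0.46), Podxl, 1.33 (SE 0.46), and Apold1, 1.04 (SE 0.33). Between the drugs in KO cells, 4.08% of all genes were called. Of the 29, Eng was higher with rapamycin, at 1.25 (SE 0.2), and Apold1 lower, at -1.46 (SE 0.33).

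The members varied among themselves in how much of their spread went with group and with replicate number. On the log2 CPM scale, the group accounted for 78.4% of the sum of squares of Cdh5 and 77.1% of that of Emcn, against a median of 44.7% over all tested genes, but for only 16.6% of that of Erg. The replicate number accounted for 43.6% in Erg and 39.4% each in Pecam1 and Flt1, against a median of 22.2%. The SD within groups was largest for Kdr (0.73 log2 units) and smallest for Cdh5 (0.17), against a median of 0.29.

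Across the 16 libraries, which share treatments and replicate numbers, the members most alike were Tie1 and Kdr (Pearson r of log2 CPM 0.86, and 0.68 within groups), followed by Pecam1 and Tek (0.73, and 0.72 within groups) and Tek and Kdr (0.72, and 0.83 within groups). The lowest of the 45 pairs was Emcn with Egfl7, at -0.59, and -0.2 within groups. The genes whose levels were most like a member were Eng for Emcn (r = 0.91), Nbeal2 for Tek (r = 0.97), Zfp423 for Kdr (r = 0.97), Mcf2l for Tie1 (r = 0.95), Zer1 for Flt1 (r = 0.94), Mtss1 for Fli1 (r = 0.94), Bzw2 for Cdh5 (r = 0.93), Kif1c for Pecam1 (r = 0.93), Sh2d5 for Egfl7 (r = 0.93) and Ckap5 for Erg (r = 0.87). Notch4, a Notch receptor of endothelial cells, was among the 3 closest to Pecam1 (r = 0.92). These are descriptions over libraries of 6 groups and carry no test.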

How the data were processed

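RNA-seq was performed on poly(A) RNA of mBMEC cultures, as 16 unstranded libraries. The estimated counts and TPM values deposited by the authors are in Salmon's output format, made per transcript and library from trimmed reads, with effective lengths beside them. Salmon 1.5.2, Trim Galore 0.6.7, HTSeq 0.13.5, DESeq2 1.34.0 and GRCm39 are named in the submitters' processing notes. How STAR and HTSeq, named in the methods, relate to these files is not given in the sources used here. The deposited counts were not normalised, and 0 columns lacked a sample.

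Expected counts were summed over 54193 genes with GENCODE names (99.12% of 140789 transcripts, the rest holding 0.39 to 0.57% of counts) and rounded. TPM deposited by the authors was summed per gene to compare levels between genes. Lengths served only as an offset in an alternative. edgeR 4.0.16 (filterByExpr, TMM factors 0.934 to 1.041, glmQLFit, 10 residual degrees of freedom) was fitted to all libraries with a coefficient per group, and p-values were Benjamini-Hochberg adjusted over 14838 genes. A gene was called at an adjusted p under 0.05 and a fold change above 1.5. DESeq2 1.42.0 was an alternative. Libraries held 18.83 to 26.2 M counts, and the biological coefficient of variation was 32.3% (19% under the block). The code was tested on simulated counts with less spread than these data and no effect of the replicate number. How well changes are detected at the real spread was not tested.

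Within each comparison made, deviations from group means correlated over 0.1 between all libraries with the same replicate number (0.19 to 0.62 for KO and WT). The lowest over all groups, compared or not, was 0.03. Libraries with different numbers reached 0.4 (KO+P replicate 3 with WT+P replicate 2), above the 0.31 of KO+P replicate 3 with KO replicate 3. In a group of 2 libraries the deviations are opposite by construction. On this basis the numbers were taken to pair the libraries. This pairing comes from the values and is not stated by the labels. The fit without the block stayed the main one.

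The members and lists were chosen with earlier results of these data known. All 10 members were named. Of other lists, the named genes came from those called or from up to 3 genes with the largest estimates and no overlap between groups. Not all such genes are given here. Pgf, Angpt2, Cldn5, Calcrl, Lyl1, Vwf, Prox1, Kcnj8, Abcc9, Pdgfrb, Cspg4, Notch3, Rgs5, Tagln, P2ry12, Aif1, Tmem119, C1qa and list genes called with the block alone were named after their values were seen. Promoters (RefSeq) and transcripts (GENCODE, GRCm39) were read from the reference, and protein sequences were not used here.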

Additional observations from a re-analysis of the deposited data

How the results depend on the processing

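The counts of called members came to 0 in KO vs WT, WT+P vs WT, KO+P vs WT+P, KO+R vs WT+R and both interactions under every alternative run, which included other scaling, no filter on low counts, DESeq2, the replicate block, an effective length offset, the groups compared only, each library left out, and the replicate block without the library labelled WT replicate 1. In KO+P vs KO (0 calls) DESeq2 with the replicate block gave 3, and the replicate block without KO+P replicate 3 gave 4 and leaving out 1 library 0 to 1 (1 without KO+P replicate 3). In KO+R vs KO (0 calls) DESeq2 with the replicate block gave 1, and 0 to 0 came from leaving out 1 library. In WT+R vs WT (0 calls) DESeq2 gave 3, the replicate block 2, DESeq2 with the replicate block 5, the replicate block without WT replicate 1 gave 3, and leaving out 1 library 0 to 1 (1 without WT replicate 2, Egfl7). In KO+R vs KO+P (0 calls) DESeq2 gave 2, no filter on low counts 1, the replicate block 3, DESeq2 with the replicate block 3, the replicate block without KO+P replicate 3 gave 4, and leaving out 1 library 0 to 2 (2 without KO+P replicate 3). In WT+R vs WT+P (1 call) the replicate block and DESeq2 with the replicate block gave 2 each, the effective length offset and the groups compared only gave 0, and leaving out 1 library 0 to 1 (0 without WT+P replicate 1, WT+R replicate 1 or WT+R replicate 2). The replicate block changed no other call of a member. Shares over all genes are given only for the main fit, the replicate block and DESeq2. The cause of these changes was not tested.

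Of the log2 fold changes of single members under an alternative, 28 changed sign, all of them of estimates within 0.34 of 0, and 779 kept direction and side of the threshold. With the replicate block and without WT replicate 1, Pecam1 and Tie1 in KO vs WT became 0.09 and 0.18, Flt1 in WT+P vs WT 0.07 and Tie1 in WT+R vs WT 0.02. With the groups compared only, Pecam1 in KO+R vs KO became 0. Leaving out 1 library gave, in KO vs WT, -0.18 to 0.05 for Pecam1, -0.21 to 0.12 for Tie1 and -0.05 to 0.55 for Flt1, in KO+P vs KO -0.17 to 0.06 for Emcn, -0.23 to 0.05 for Erg and -0.08 to 0.12 for Egfl7, in KO+R vs KO -0.15 to 0.15 for Pecam1, -0.01 to 0.19 for Tie1 and -0.14 to 0.11 for Erg, in WT+P vs WT -0.82 to 0.03 for Emcn, -0.67 to 0.04 for Flt1 and -0.26 to 0.07 for Erg, and in WT+R vs WT -0.03 to 0.33 for Kdr. Where a fit left 1 library in a group, that library was assumed to vary like the other groups.

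Each group held only 2 or 3 libraries, and no fit at reduced depth was made. Nothing in the labels says which mice went into which culture, so p-values measure the spread between these libraries. Overlap limits Egfl7 most, since 17.8% of its exonic bases overlap other genes on either strand and the reads are unstranded.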
